A study of Homo sapiens with 3 samples.

Results

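The genes described here are those of the NF-kB pathway in the multiple myeloma line MM1S, an established human cell line, with FK866 and without it. FK866 inhibits NAMPT, the enzyme that recycles nicotinamide into NAD. The list held 40 genes: the Rel subunits, their IkB inhibitors, the kinases, adaptors and ubiquitin enzymes that control them, genes known as NF-kB targets, and the HIVEP zinc finger factors, which bind the same DNA motif. A gene was measured when the array annotation gave at least 1 probe set that symbol alone and the probe set's mean signal over the arrays was 20 or more. This held for 31 of the 40 genes, of 11330 genes measured in all, with 78 of their 95 probe sets. Where several probe sets of a gene passed, the brightest on average gives the value.

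Cells were cultured with 10 nM FK866 for 6 h, with 10 nM FK866 for 24 h, or were left untreated, labelled as 0 h. Each of these groups gave 1 Affymetrix array of biotin-labelled cRNA. The comparisons ask how transcripts differed early and late under NAMPT inhibition. With 1 array per group no test is possible, no value has a replicate check, and FK866 cannot be told apart from the time in culture.

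NF-kB is a family of dimeric transcription factors held in the cytoplasm by IkB proteins. In the canonical pathway the IKK kinase complex marks an IkB for degradation, and dimers such as RELA with the NFKB1 product enter the nucleus. In the alternative pathway the kinase MAP3K14 leads to processing of the NFKB2 product and release of RELB dimers, and TRAF3 and the cIAP ligases keep MAP3K14 low. Many genes that restrain NF-kB, such as NFKBIA and TNFAIP3, are themselves its targets. Myeloma cells often carry mutations that keep this pathway active.

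Signals are in arbitrary units per amount of labelled RNA, so fewer transcripts per cell and fewer cells contributing RNA cannot be told apart. Differences are on the log2 scale after signals under 16 were set to this floor, and a size of at least 2-fold is used as a fixed mark. The median of all genes differed from untreated cells by -0.10 at 6 h and -0.13 at 24 h, and 24 h from 6 h by -0.04. Every difference given here includes these shifts. Hybridisation spikes with a mean signal of 200 or more were lower than in the untreated array in 6 of 6 probe sets at each time, with medians of -0.18 and -0.20. Poly-A spikes of that level, 6 probe sets, had medians of -0.29 at 6 h and 0.19 at 24 h, and their part in the results was not tested. Between kept probe sets of the same gene, over 5709 genes, the pooled SD of the difference from untreated was 0.37 at 6 h and 0.37 at 24 h. For genes with a mean signal from 20 to 100 it was 0.48 and 0.48, and for those of 500 or more 0.29 and 0.30. Isoforms and probe error enter this spread, and differences between cultures do not. Plasma cell markers were measured for 9 of 10 genes, with summed signals of 37750 untreated, 36056 at 6 h and 36524 at 24 h. Of the markers of myeloid cells 2 of 8 passed the minimum and of T and NK cells 1 of 9, with no summed signal above 63.3, and CD14, LYZ, CD3D and CD3E were not among them. Of the stroma markers 2 of 8 passed, VIM and COL1A1, with summed signals of 8574, 7079 and 6200 in that order, nearly all from VIM. COL1A1 had signals of 101.5 untreated, 53.4 at 6 h and 19.3 at 24 h, a difference of -2.39 at 24 h, where its other probe set gave 0.52. Within the plasma cell sum, IRF4 differed by 0.93 and XBP1 by -0.79 at 24 h. The log2 ratio of 3' to 5' signal, a sign of RNA quality, was 2.25 untreated, 2.55 at 6 h and 2.33 at 24 h for ACTB, and 0.24, 0.20 and 0.32 for GAPDH. The part of these markers and ratios in the results was not tested.

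A few NF-kB genes were much lower under FK866, and most were close to their untreated level. At 6 h, 5 of 31 genes were at least 2-fold lower (REL, NFKBIZ, CXCL10, CCL4 and HIVEP1), or 16.1%, where 3.12% of all genes were. None was at least 2-fold higher at 6 h, where 1.46% of all genes were. At 24 h, 6 of 31 genes were at least 2-fold lower (REL, NFKBIZ, CXCL10, HIVEP1, NFKB2 and ICAM1), or 19.4%, where 4.02% of all genes were. None was at least 2-fold higher at 24 h, where 1.11% of all genes were. CCL3, listed but not measured, shares a probe set with CCL3L1 and CCL3L3 that was 2.37-fold higher at 24 h. The genes were chosen with earlier results of these data known, so the larger shares are no test of NF-kB genes as a group. Both comparisons use the same untreated array. Thus 4 genes were past 2-fold at both times, 1 at 6 h alone and 2 at 24 h alone, and 24 stayed within 2-fold at both. The same split was not counted over all genes, so it is not read as a trait of these genes.

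The balance between higher and lower calls over all genes depended on the scaling. As deposited it was 165 higher and 354 lower at 6 h, against 265 and 199 after quantile normalization and 300 and 173 after centring each array on its median. At 24 h it was 126 higher and 455 lower as deposited, 264 and 260 after quantile normalization and 274 and 254 after centring.

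**Figure D1:**
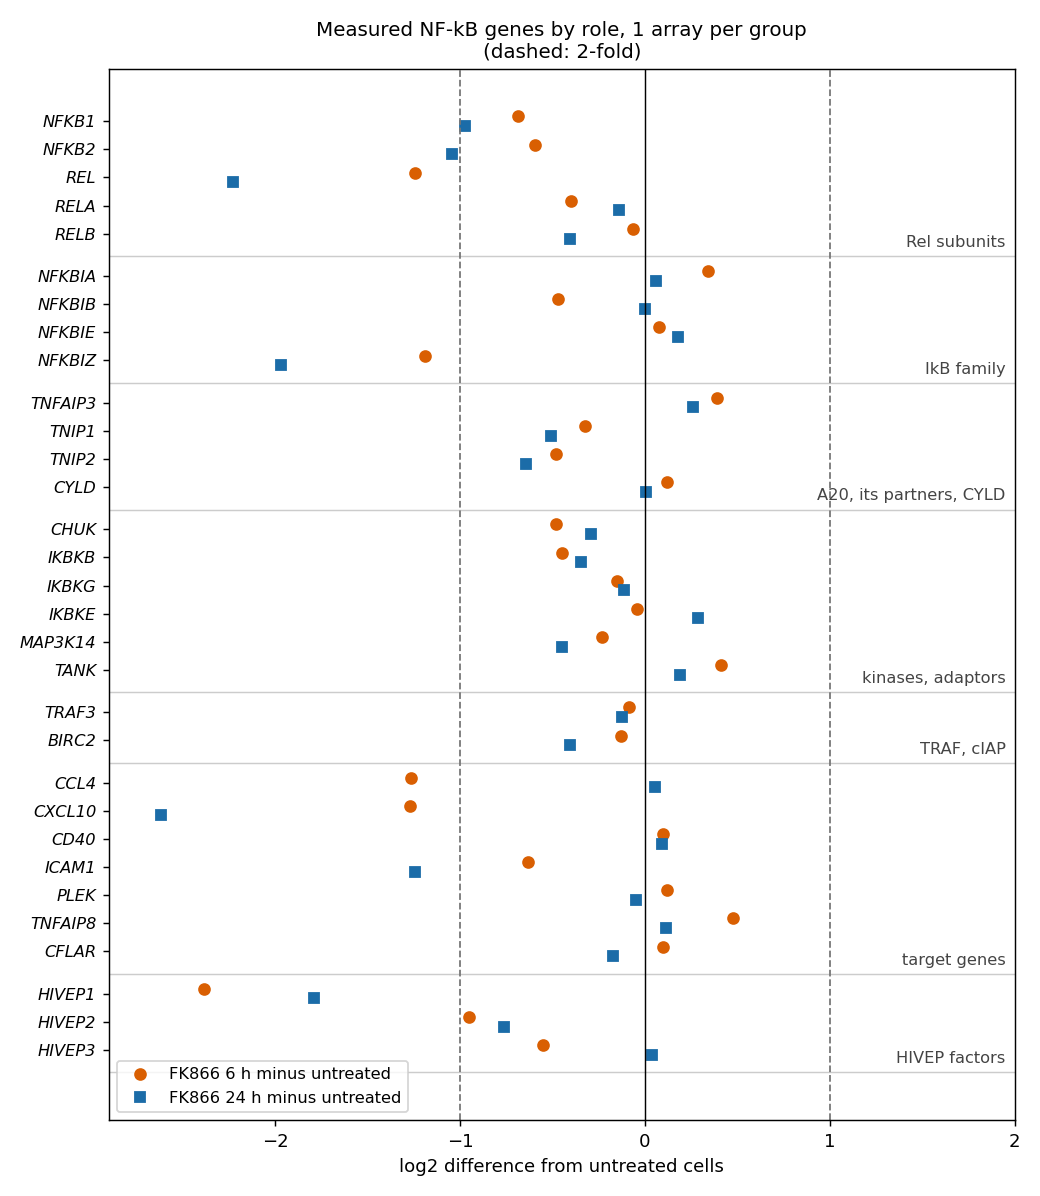
Log2 difference from untreated cells (horizontal axis) of each measured NF-kB gene, grouped by role, with circles for FK866 at 6 h, squares for FK866 at 24 h and dashed lines at 2-fold. REL, NFKBIZ, CXCL10 and HIVEP1 lie left of the dashed line at both times, and no gene lies right of the other one.

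Among the Rel subunits, REL, which encodes c-Rel, the subunit most tied to lymphoid cells, showed the largest differences. Its signals were 153.4 untreated, 64.7 at 6 h and 32.7 at 24 h. It was therefore lower at 6 h than in untreated cells and lower again at 24 h, still above the floor. The difference was -1.25 at 6 h (2.37-fold lower) and -2.23 at 24 h (4.69-fold lower), and only 0.256% of all genes had a lower value at 24 h. Its 4 kept probe sets were all at least 2-fold lower at both times, between -1.65 and -1.25 at 6 h and between -2.36 and -1.51 at 24 h. The probe set behind the value of -1.51 had signals of 45.5 untreated, 19.0 at 6 h and 8.6 at 24 h. It passed the minimum through the untreated array, where alone it reached 20, so it is not counted as support, and its 24 h value is a bound set by the floor. The other 3 sets reached 20 on all 3 arrays. With 32 added to each signal in place of the floor, REL at 6 h differed by -0.94 and was not 2-fold lower. Its 24 h value was -1.52 with 32 added and -1.26 with a floor of 64, so the size of the difference at 24 h depends on how low signals are treated.

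NFKB1 and NFKB2 encode the precursors that are processed to the other DNA-binding partners, and both were lower at 6 h and lower again at 24 h. NFKB1, with 1 probe set, had signals of 709.7 untreated, 441.1 at 6 h and 360.9 at 24 h. Its difference was -0.69 at 6 h and -0.98 at 24 h, just short of 2-fold. NFKB2 had signals of 145.6 untreated, 96.4 at 6 h and 70.7 at 24 h. Its difference was -0.59 at 6 h and -1.04 at 24 h, and its second probe set gave -0.68 and -0.89. NFKB2 was past 2-fold at 24 h as deposited but not after quantile normalization, after centring, with 32 added, by the mean over probe sets or with only probe sets made for a single transcript (leaving out the suffixes _x_at and _s_at). The highest of these values was -0.79.

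RELA, of the canonical pathway, and RELB, of the alternative pathway, stayed closer to untreated cells than the other subunits. The gap between RELA and NFKB2 at 6 h was smaller than the spread between probe sets. RELA had signals of 499.3 untreated, 378.4 at 6 h and 453.0 at 24 h, with differences of -0.40 and -0.14. Its second probe set gave -0.40 and -0.25. RELB had signals of 111.1 untreated, 106.3 at 6 h and 83.8 at 24 h, with differences of -0.06 and -0.41. For RELA at 24 h and RELB at 6 h the sign changed under centring, for RELB also under quantile normalization, so neither has a settled direction at that time. All 5 subunits lay below the median of all genes at 24 h, and 4 of 5 at 6 h. RELA at 24 h was only -0.01 from that median, well inside the spread between probe sets.

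**Figure D2:**
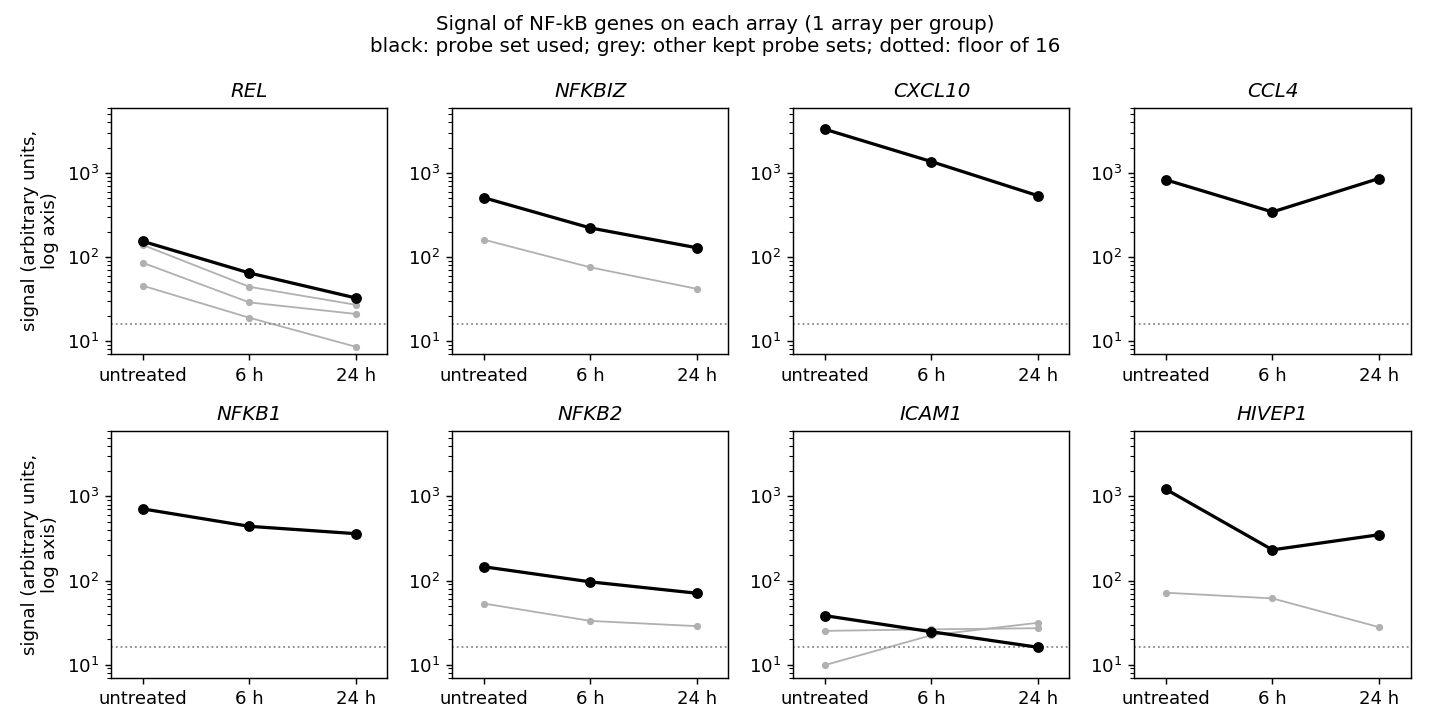
Signal in arbitrary units on a log axis for untreated cells and FK866 at 6 h and 24 h, 1 array each, for 8 NF-kB genes. Black lines are the probe set used, grey lines other kept probe sets and the dotted line the floor of 16. REL, NFKBIZ, CXCL10, NFKB1 and NFKB2 step down at both times, CCL4 is back at 857.7 at 24 h, and the 3 probe sets of ICAM1 cross.

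The IkB family split. NFKBIZ encodes an atypical, nuclear IkB that acts as a cofactor for a subset of NF-kB targets, and it behaved like REL. Its signals were 506.6 untreated, 222.0 at 6 h and 129.3 at 24 h. The difference was -1.19 at 6 h (2.28-fold lower) and -1.97 at 24 h (3.92-fold lower). Its second probe set gave -1.09 and -1.94, so both sets were past 2-fold at both times. After centring on array medians the 6 h value was -0.96 and not past 2-fold.

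The inhibitors that hold NF-kB in the cytoplasm were not lowered in the same way. NFKBIA, the main inducible inhibitor, had signals of 388.3 untreated, 491.0 at 6 h and 405.0 at 24 h, with differences of 0.34 and 0.06. NFKBIE had signals of 172.8 untreated, 181.9 at 6 h and 195.5 at 24 h, with differences of 0.07 and 0.18. Both were above the untreated level at both times under the alternatives tried, though within 2-fold. NFKBIB had signals of 78.3 untreated, 56.5 at 6 h and 78.3 at 24 h, with differences of -0.47 and 0.00, but its 3 probe sets ranged from -1.01 to -0.21 at 6 h and from -0.71 to 0.47 at 24 h. For BCL3, a nuclear IkB, the probe sets carry several symbols, and no value is given to the gene.

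Because many of these genes are known NF-kB targets, promoter sequences are shown for those past 2-fold with an entry in the RefSeq table (REL, NFKBIZ, CXCL10, NFKB2 and ICAM1). Those of NFKB1, just short of 2-fold, and of NFKBIA and TNFAIP3, restraining genes that were not lower, were added after their values were seen. Each is the 250 bases before a RefSeq transcript start in build GRCh38.p14, the most upstream where there are several. Capitals mark matches to the kappaB consensus on either strand. The consensus searched was GGG, a purine, any 2 bases, 2 pyrimidines and CC. They lie at chr2:60881324-60881573 (REL, plus strand), chr3:101827740-101827989 (the upstream start of NFKBIZ, plus strand), chr4:76023498-76023747 (CXCL10, minus strand), chr10:102393860-102394109 (the upstream start of NFKB2, plus strand), chr19:10270870-10271119 (ICAM1, plus strand), chr4:102501109-102501358 (the upstream start of NFKB1, plus strand), chr14:35404750-35404999 (NFKBIA, minus strand) and chr6:137867009-137867258 (TNFAIP3, plus strand).
REL: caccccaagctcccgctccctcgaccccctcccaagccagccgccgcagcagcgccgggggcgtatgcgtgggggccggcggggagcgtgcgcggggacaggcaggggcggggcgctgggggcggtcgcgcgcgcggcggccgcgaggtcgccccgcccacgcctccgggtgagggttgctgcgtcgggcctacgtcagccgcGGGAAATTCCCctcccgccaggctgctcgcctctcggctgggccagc
NFKBIZ: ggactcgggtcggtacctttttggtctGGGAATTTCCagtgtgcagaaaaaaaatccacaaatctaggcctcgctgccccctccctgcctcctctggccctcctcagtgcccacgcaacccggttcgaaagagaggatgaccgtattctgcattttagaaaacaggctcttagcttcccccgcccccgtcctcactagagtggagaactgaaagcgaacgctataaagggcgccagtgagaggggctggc
CXCL10: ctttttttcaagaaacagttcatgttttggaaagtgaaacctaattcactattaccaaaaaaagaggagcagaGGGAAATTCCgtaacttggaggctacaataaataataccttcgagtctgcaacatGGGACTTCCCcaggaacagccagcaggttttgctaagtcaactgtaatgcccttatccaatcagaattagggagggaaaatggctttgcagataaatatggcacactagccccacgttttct
NFKB2: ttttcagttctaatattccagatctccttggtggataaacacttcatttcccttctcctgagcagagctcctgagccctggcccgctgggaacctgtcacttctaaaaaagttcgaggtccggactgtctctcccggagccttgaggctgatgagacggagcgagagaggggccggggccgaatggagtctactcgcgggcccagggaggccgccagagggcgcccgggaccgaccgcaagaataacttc
ICAM1: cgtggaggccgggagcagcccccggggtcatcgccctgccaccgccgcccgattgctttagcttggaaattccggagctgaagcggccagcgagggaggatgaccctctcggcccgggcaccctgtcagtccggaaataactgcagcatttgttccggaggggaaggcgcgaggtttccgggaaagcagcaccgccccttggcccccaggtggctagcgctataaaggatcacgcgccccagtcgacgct
NFKB1: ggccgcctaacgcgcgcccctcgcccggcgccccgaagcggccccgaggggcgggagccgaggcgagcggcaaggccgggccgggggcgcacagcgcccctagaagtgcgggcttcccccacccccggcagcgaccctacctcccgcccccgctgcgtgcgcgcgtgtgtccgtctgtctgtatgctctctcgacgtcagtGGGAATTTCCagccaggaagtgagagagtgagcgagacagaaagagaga
NFKBIA: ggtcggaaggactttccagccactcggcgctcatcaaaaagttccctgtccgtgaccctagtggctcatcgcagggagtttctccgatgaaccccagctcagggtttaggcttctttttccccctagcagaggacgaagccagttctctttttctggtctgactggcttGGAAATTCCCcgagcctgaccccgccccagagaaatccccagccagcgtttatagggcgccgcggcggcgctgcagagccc
TNFAIP3: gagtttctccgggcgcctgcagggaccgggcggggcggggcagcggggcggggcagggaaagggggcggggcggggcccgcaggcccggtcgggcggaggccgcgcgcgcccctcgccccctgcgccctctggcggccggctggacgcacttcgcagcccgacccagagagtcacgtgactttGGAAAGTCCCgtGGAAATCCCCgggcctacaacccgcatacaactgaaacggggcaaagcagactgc

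The matches begin 177 and 122 bases before the start of CXCL10, 67 and 55 before that of TNFAIP3, 81 before that of NFKBIA and 49 before that of NFKB1. REL holds a pair that overlap on opposite strands, 47 and 46 bases before its start, and NFKBIZ 1 match 223 bases before this start. ICAM1 holds no match, and NFKB2 none before the start shown, while its other starts both have matches. Over all genes in the RefSeq table, 11.8% held a match in this window before at least 1 start, and 15.3% of the 9285 measured genes with an entry did. Among the measured NF-kB genes with an entry it was 13 of 25. A match says nothing of binding in these cells, and the lack of a match does not mean the lack of a kappaB site. The ICAM1 sequence holds tggaaattcc, which departs from the consensus at its first base and is not marked.

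Genes with and without a match overlapped in their response. The 13 with a match had differences between -1.27 and 0.41 at 6 h and between -2.62 and 0.26 at 24 h, with medians of -0.32 and -0.17. The 12 without had differences between -0.95 and 0.47 at 6 h and between -1.25 and 0.29 at 24 h, with medians of -0.32 and -0.22. At least 2-fold lower were 3 genes with a match and 0 without at 6 h, and 4 with and 1 without at 24 h, where 3.12% and 4.02% of all genes were. CCL4, HIVEP1, RELB, NFKBIE, CD40 and IKBKB had no entry in this table.

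The ubiquitin editing genes were within 2-fold at both times. TNFAIP3 encodes A20, which ends NF-kB signalling, and had signals of 2329 untreated, 3052 at 6 h and 2788 at 24 h. Its difference was 0.39 at 6 h and 0.26 at 24 h, with its second probe set at 0.35 and 0.27, so it was above the untreated level where REL and NFKBIZ were below. Its partners TNIP1 and TNIP2 were below the untreated level. TNIP1 differed by -0.32 and -0.51, and TNIP2 by -0.48 and -0.65, with 2 of 2 and 3 of 3 probe sets negative at both times. CYLD, which removes ubiquitin chains from pathway proteins, differed by 0.12 and 0.00 by its brightest probe set, but 5 of its 7 probe sets were negative at 6 h and its sign changed with the mean over probe sets.

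The kinases and adaptors were also within 2-fold. CHUK and IKBKB, the catalytic subunits of IKK, differed by -0.48 and -0.45 at 6 h and by -0.29 and -0.35 at 24 h. IKBKG, the regulatory subunit, differed by -0.15 and -0.12, with its second probe set at 0.12 and -0.57, and its sign changed after centring. IKBKE, a related kinase of the interferon response, differed by -0.04 and 0.29, with its second probe set at -0.15 and -0.05. The sign of IKBKE at 6 h changed after quantile normalization and after centring. MAP3K14, the kinase of the alternative pathway, had signals of 143.0 untreated, 121.7 at 6 h and 104.9 at 24 h, a difference of -0.23 and -0.45. TANK, which binds TRAF proteins, differed by 0.41 and 0.19, with its 3 probe sets between -0.18 and 0.58 at 6 h and between -0.31 and 0.39 at 24 h.

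TRAF3, which restrains MAP3K14, had signals of 386.2 untreated, 363.6 at 6 h and 353.7 at 24 h, and differences of -0.09 and -0.13 whose sign changed after quantile normalization and after centring. BIRC2, the ligase cIAP, had signals of 1848 untreated, 1686 at 6 h and 1397 at 24 h, and differences of -0.13 and -0.40. TRAF1 had 2 probe sets, neither of which reached a mean of 20. TRAF2 and BIRC3 had no probe set under their symbol in the annotation used and were not analysed here.

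Among target genes, the chemokines CXCL10 and CCL4 had the lowest values at 6 h, and they differed from each other at 24 h. CXCL10, which attracts T cells through CXCR3 and is also an interferon target, had signals of 3303 untreated, 1366 at 6 h and 538.2 at 24 h. It was lower at each step, by -1.27 at 6 h (2.42-fold) and by -2.62 at 24 h (6.14-fold), and it was also 2.54-fold lower at 24 h than at 6 h. It stayed past 2-fold in all 3 comparisons under each of the 9 alternatives, between -2.62 and -2.37 at 24 h. Only 0.124% of all genes had a lower value at 24 h.

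CCL4, a chemokine that attracts immune cells, had signals of 827.5 untreated, 344.1 at 6 h and 857.7 at 24 h. It was 2.40-fold lower at 6 h (-1.27) and at its untreated level at 24 h (0.05), a course unlike that of CXCL10. Between the treated arrays it was 2.49-fold higher at 24 h, the only one of the 31 genes past 2-fold in that direction, where 1.05% of all genes were. CXCL10 was the only one past 2-fold lower at 24 h than at 6 h, where 1.84% of all genes were, and REL, with -0.98, lay just inside. CCL4 and CXCL10 have 1 kept probe set each, so no second probe set bears on either value.

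Targets tied to survival and adhesion were mostly within 2-fold. TNFAIP8, which opposes cell death, had signals of 1454 untreated, 2019 at 6 h and 1575 at 24 h. Its difference was 0.47 at 6 h, the highest of the 31 genes by the probe set used, and 0.12 at 24 h, with its second probe set at 0.59 and 0.56. PLEK, which encodes pleckstrin, differed by 0.12 and -0.05, and CD40, a receptor that itself feeds the alternative pathway, by 0.10 and 0.09. Neither has a settled direction at 24 h: PLEK changed sign after quantile normalization and centring, and CD40 with the mean over its 4 probe sets (-0.14), of which 3 were negative.

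CFLAR encodes c-FLIP, which blocks activation of caspases at death receptors, and its brightest probe set differed by 0.10 and -0.17. Its 12 kept probe sets ranged from -0.90 to 0.49 at 6 h and from -1.79 to 0.05 at 24 h. The lowest at both times was the same one, with signals of 183.4 untreated, 98.6 at 6 h and 52.9 at 24 h, whereas the other 11 lay between -0.46 and 0.05 at 24 h. ICAM1, the adhesion molecule, was the dimmest case: the probe set used had signals of 38.2 untreated, 24.6 at 6 h and 16.1 at 24 h, a difference of -0.63 and -1.25. Its other probe sets differed by 0.10 and by at least 0.97 at 24 h, the last with an untreated signal of 9.9, under the floor, so its probe sets disagree in direction and the call at 24 h was absent with a floor of 32 or 64, with 32 added, after quantile normalization and by the mean over probe sets. ICAM1 was also the only measured gene whose probe set did not reach 20 on all 3 arrays.

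**Figure D3:**
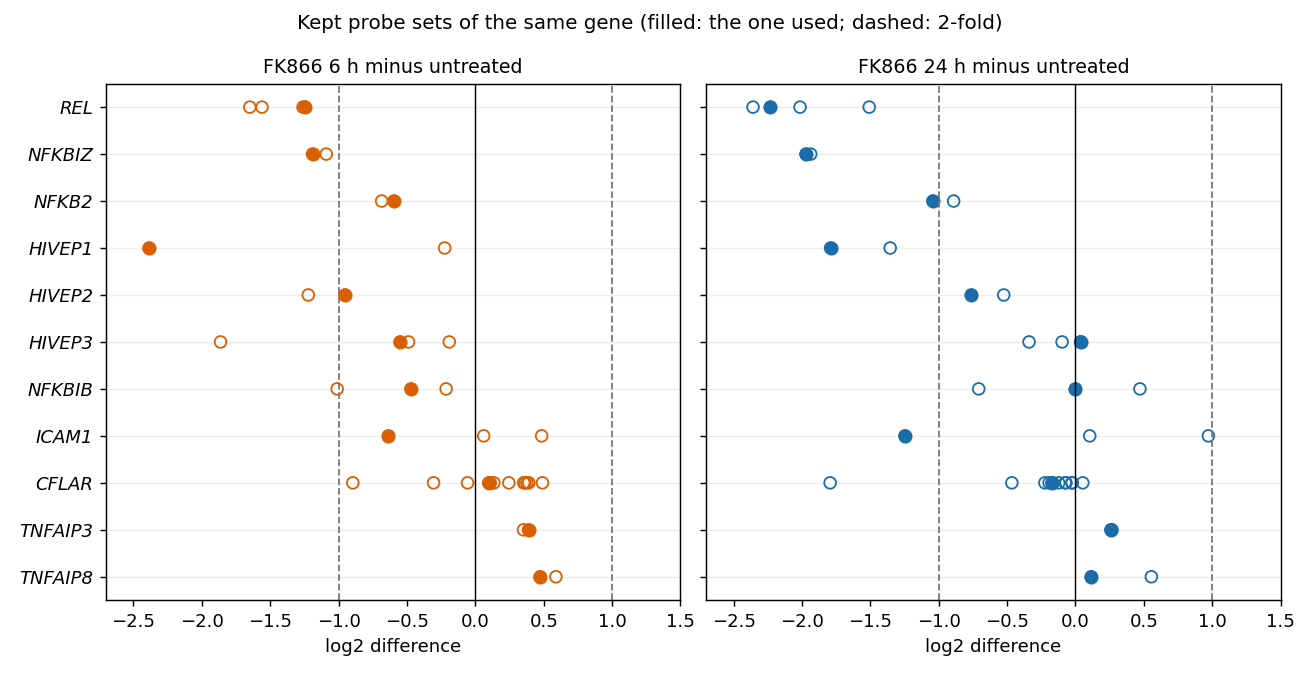
Log2 difference from untreated cells of each kept probe set, for 11 NF-kB genes with several, at 6 h (left) and 24 h (right). Filled circles are the probe set used and dashed lines mark 2-fold. The sets of REL and NFKBIZ lie together left of the line, those of ICAM1 spread from -1.25 to 0.97 (a bound set by the floor) at 24 h, and 1 of 12 sets of CFLAR stands at -1.79.

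The HIVEP factors are large zinc finger proteins named for binding a viral kappaB enhancer. Of their 3 genes 1, HIVEP1, was at least 2-fold lower at each time. Of all genes, 3.12% were at 6 h and 4.02% at 24 h. HIVEP1 had signals of 1210 untreated, 231.7 at 6 h and 349.9 at 24 h. It was 5.22-fold lower at 6 h (-2.39) and 3.46-fold at 24 h (-1.79), but its second probe set, with signals of 71.6 untreated, 61.3 at 6 h and 28.0 at 24 h, gave -0.22 at 6 h and -1.35 at 24 h. So both sets were past 2-fold at 24 h and 1 of 2 at 6 h.

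HIVEP2 had signals of 210.8 untreated, 108.9 at 6 h and 124.4 at 24 h, with differences of -0.95 and -0.76. Its second probe set gave -1.22 and -0.52, and HIVEP2 was past 2-fold at 6 h by the mean over probe sets and with only probe sets for a single transcript. HIVEP3 had signals of 102.2 untreated, 69.8 at 6 h and 104.9 at 24 h, with differences of -0.55 and 0.04. All 4 of its probe sets were negative at 6 h, down to -1.86, a bound since that set had a 6 h signal of 13.1, under the floor, and they lay between -0.34 and 0.04 at 24 h. All 3 HIVEP genes lay above the median of all genes in the comparison of 24 h with 6 h, at 0.59, 0.19 and 0.59 by the probe sets used. The second probe set of HIVEP1 gave -1.13 there, and its mean over probe sets was -0.27, so HIVEP1 has no settled direction between these times.

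Pathway parts were next set against targets. The 21 measured pathway parts had a median difference of -0.23 at 6 h and -0.29 at 24 h, against medians of all genes of -0.10 and -0.13. Of them 2 were at least 2-fold lower at 6 h and 3 at 24 h (3.12% and 4.02% of all genes), and none was 2-fold higher (1.46% and 1.11% of all genes). The 7 measured target genes had a median of 0.10 at 6 h and -0.05 at 24 h, with 2 at least 2-fold lower at each time and none higher, beside the same shares of all genes. By the probe sets used, targets had the higher median at both times, while their lowest genes reached as far down as the lowest pathway parts. Both sides are small. With only probe sets for a single transcript, which left 4 targets, the order turned. The target medians were then -1.08 at 6 h and -0.87 at 24 h, and those of the pathway parts -0.21 and -0.41. PLEK, TNFAIP8 and ICAM1 had dropped out, and CFLAR was read from its lowest probe set, at -0.90 and -1.79. Relative to the median gene, the targets' median at 24 h was 0.08, so its sign there depended on the scaling.

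The pathway parts that are known targets themselves held all the pathway genes past 2-fold. Of these 9 measured genes, 2 were at least 2-fold lower at 6 h and 3 at 24 h, with medians of -0.32 and -0.51. Of the 12 others, none was, with medians of -0.19 and -0.13. Over all genes 3.12% were at least 2-fold lower at 6 h and 4.02% at 24 h. NFKB2, counted at 24 h, was not past 2-fold under 5 of 9 alternatives. The lists were drawn up with earlier results of these data known, so the contrast is no test. The known targets among the parts spanned TNFAIP3 and NFKBIA above the untreated level and REL and NFKBIZ at the low end. Between the treated arrays, 8 of the 9 lay below the median of all genes, and 6 of the 12 others did.

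**Figure D4:**
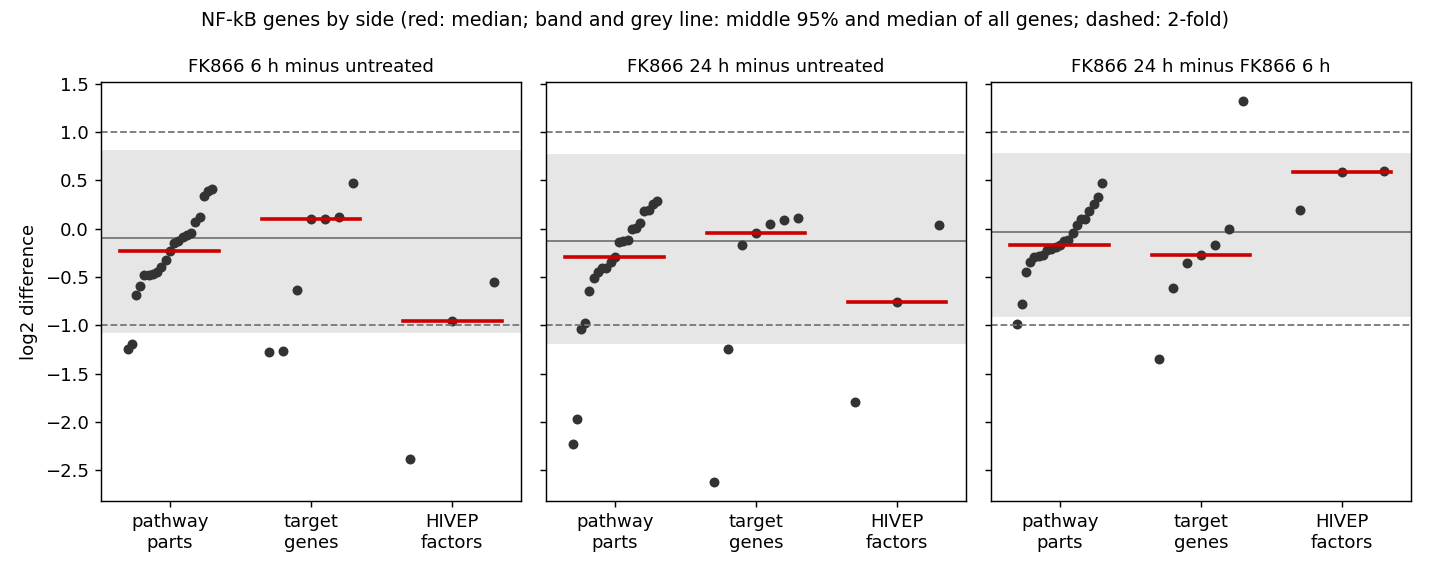
Log2 differences of NF-kB genes (points) by side in each comparison. Red lines are medians, the grey band the middle 95% of all 11330 genes, the grey line their median, and dashed lines 2-fold. At 24 h against untreated cells most points lie in the band, and REL and NFKBIZ among pathway parts, CXCL10 and ICAM1 among targets and HIVEP1 lie below it.

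Further NF-kB pathway genes, from lists of receptors and ligands, signal transmission, nuclear regulators and targets, were largely within 2-fold. Of 81 listed genes 55 were measured. At 6 h none was past 2-fold in either direction by the probe set used, where 3.12% of all genes were lower and 1.46% higher. At 24 h 3 were at least 2-fold lower, or 5.45%, where 4.02% of all genes were, and none was higher. The medians of these genes were -0.11 at 6 h and -0.16 at 24 h, next to -0.10 and -0.13 for all genes.

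The bright one of the 3 was IRF1, a transcription factor of the interferon response, with signals of 654.1 untreated, 374.6 at 6 h and 318.5 at 24 h. It differed by -0.80 and -1.04, with its second probe set at -0.65 and -0.58. STAT5A, a cytokine-activated factor, had signals of 45.2 untreated, 48.8 at 6 h and 22.0 at 24 h, and NFKBIL1 40.0, 32.7 and 12.3, both dim and each with 1 probe set. Between the treated arrays STAT5A and NFKBIL1 were again past 2-fold lower at 24 h, or 3.64% of the 55, where 1.84% of all genes were. USP18, an interferon-induced protease, was past 2-fold higher there, or 1.82%, where 1.05% of all genes were. USP18 was also dim with 1 probe set, with signals of 30.5 untreated, 25.0 at 6 h and 55.7 at 24 h. From untreated cells it differed by 0.87 at 24 h, within 2-fold. By the probe sets used, all 22 measured genes of signal transmission and all 9 receptors and ligands were within 2-fold in all 3 comparisons. Some of their other kept probe sets were past 2-fold lower. The lowest were -1.48 at 6 h and -1.81 at 24 h for TRAF4, and -1.46 and -1.04 for TLR4. They were -1.36 at 24 h for AZI2 and -1.01 at 6 h for CUL1. Between the treated arrays they were -1.20 for AZI2 and -1.05 for TNFSF13B.

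Of the 9 unmeasured NF-kB genes, 5 had probe sets under the minimum: TRAF1, CXCL8, CD83, EBI3 and BCL2A1. Just outside the minimum were CD83, with a mean signal of 19.5, and TRAF1, with 19.1. Just inside were a probe set each of ICAM1 and CD40, with means of 21.2 and 21.7, neither of them the brightest of its gene. CD83 had signals of 27.2 untreated, 6.3 at 6 h and 25.0 at 24 h. CXCL8, EBI3 and BCL2A1 had no signal of 16 or more on any array. For CCL3 and BCL3 the probe sets carry several symbols.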

How the data were processed

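Each probe set has a linear intensity on each of the 3 arrays in the deposited table. The labels' protocols name the standard Affymetrix procedure for labelling. The sources used here do not give the summary of probes or the scaling of arrays. The median intensity was 20.4 untreated, 17.4 at 6 h and 17.2 at 24 h. Precision is limited by there being 1 array per group.

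Genes were named from GEO's platform annotation, using probe sets with 1 symbol. Signals under 16 were set to 16 and log2 values taken. The text names every listed NF-kB gene, and of the further pathway genes those past 2-fold. The genes, lists and roles were chosen with earlier results of these data known. The procedure was tested on simulated data. Alternatives covered scaling, floor, filter, probe set summary, probe sets that may bind several transcripts and the size. Promoter sequences are RefSeq's (GRCh38.p14), with entries for 34 of the 40 genes. Protein stretches had been foreseen and are not used here. Python 3.11.15, numpy 2.4.6, pandas 2.3.3 and matplotlib 3.10.9 were used.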

Additional observations from a re-analysis of the deposited data

Results flagged for a closer look

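CCL4 lay below its untreated level at 6 h (-1.27) and slightly above it at 24 h (0.05), and its log2 difference between 24 h and 6 h was 1.32. This difference was not tested, since each time has 1 array, and both values share the untreated array.

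A probe set outside the comparisons, annotated to CCL3, CCL3L1 and CCL3L3 together, was higher at 24 h than in untreated cells. Its signals were 3719 untreated, 5022 at 6 h and 8823 at 24 h, and the log2 difference at 24 h was 1.25 (2.37-fold). It cannot be assigned to one of the 3 chemokine genes.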

How the results depend on the processing

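No paired analysis was possible because each group has 1 array. Of 138 recomputed counts and medians, 128 stayed within 1.5 times the reported count, or within the spread between probe sets of the reported median. A median on the opposite side of 0 was not counted among the 128, and a median of exactly 0 could be. With 1.5-fold in place of 2-fold, 9 genes were lower at 6 h against 5, and 9 at 24 h against 6. Between 24 h and 6 h 3 were higher and 4 lower against 1 and 1. The shares of all genes past 1.5-fold were not counted, so these counts are not read as a trait of the NF-kB genes. The targets' median at 24 h, -0.05 as reported, was 0.091 after quantile normalization, 0.20 after centring, 0.0027 with a mean signal of 100 or more, and, in settings chosen after seeing the data, 0.082 relative to the median gene and 0.0027 with all 3 arrays at 20 or more. With only probe sets for a single transcript it was -0.87, and at 6 h -1.08 against 0.10, over 4 of the 7 targets. PLEK, TNFAIP8 and ICAM1 dropped out there. CFLAR was read from its lowest probe set, at -0.90 at 6 h and -1.79 at 24 h in place of 0.10 and -0.17. Why the probe sets of CFLAR differ was not tested. No alternative made a gene of the list at least 2-fold higher than in untreated cells at the 2-fold mark. Signals near or under the minimum limit ICAM1, CD83, TRAF1, CXCL8, EBI3 and BCL2A1.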

Other observations

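The brighter probe set annotated to both BCL3 and MIR8085 had signals of 115.2 untreated, 93.5 at 6 h and 72.1 at 24 h, a log2 difference of -0.30 and -0.68.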
